A study of Mus musculus with 28 samples.

Results

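Integrins are the cell surface receptors through which cells hold on to matrix and to each other, and laminins are the basement membrane proteins that several of them bind. The 35 genes described here are the chains of both families that the array measured with a row of their own, namely 25 integrin chains and 10 laminin chains, of 30145 genes with a single annotated symbol in the series. A gene entered when the symbol of its row began with Itga, was Itgb1 to Itgb8, or was a laminin chain of the Lama, Lamb or Lamc series. Each of the 35 had 1 such row (a transcript cluster, the set of probes that the array summarises for a gene), so no choice among rows was needed. The row of Itga1 is shared with Pelo and was not used.

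The arrays held cortical tissue from 28 mice aged 12 to 15 weeks, 7 in each of 4 groups. KO CCI were mice labelled as Rbm5 knockout that received a craniotomy and controlled cortical impact (CCI, an impact at 6 m/s to a depth of 1.2 mm). KO sham were knockout mice given anaesthesia without craniotomy. WT CCI and WT sham were wild type mice treated in the same 2 ways. Sham tissue thus differs from injured tissue by the craniotomy as well as by the impact. All animals were perfused with saline at 48 h. Each group held both sexes, with 3 males in KO CCI, WT CCI and WT sham and 4 males in KO sham. The allele and strain are not described in the labels.

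An integrin is a dimer of an alpha and a beta chain, and the pairing sets what it binds. The beta2 chain (Itgb2) is restricted to leukocytes and pairs with the alpha chains Itgal (LFA-1), Itgam (Mac-1, complement receptor 3), Itgax and Itgad, while beta7 pairs with Itgae or Itga4. The beta1 chain (Itgb1) is found on most cells and pairs with many alpha chains, among them Itga5 for fibronectin, Itga3, Itga6 and Itga7 for laminin, and Itga2, Itga10 and Itga11 for collagen. The alphav chain (Itgav) pairs with beta1, beta3, beta5, beta6 or beta8 and binds vitronectin, fibronectin or latent TGF-beta. Laminins are trimers of an alpha, a beta and a gamma chain, and in brain they line vessels and the surface under the meninges. Microglia, the resident macrophages of the brain, and the monocytes and neutrophils that enter injured cortex all carry Mac-1.

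The promoters below are shown because they belong to 4 integrin chains that rose after injury in both genotypes, and to Itgax, the next gene to Itgam, whose mean lay below the lowest array median. Itgam, Itgax and Itgad lie next to each other on chromosome 7, so the partners of beta2 with the larger and the smaller changes include neighbours. Windows of 250 bases before to 50 bases after the gene start were taken from RefSeq (GRCm38.p6), in which 22 of the 35 members had a window, and each is printed 5′ to 3′ on the strand of its gene. Capitals mark the letters GAGGAAG (the core bound by the myeloid factor PU.1), GGGCGG (the box bound by Sp1) and TGANTCA (the site bound by AP-1), searched on both strands, so that CTTCCTC and CCGCCC are the first 2 of these read on the other strand. The letters TATAAA were also searched and were found in none of the members' windows. No capitals of different matches overlap. The windows are Itgam at chr7:128062390-128062689 (+), Itgax at chr7:128129300-128129599 (+), Itga5 at chr15:103366742-103367041 (-), Itgb1 at chr8:128685404-128685703 (+) and Itgb5 at chr16:33829415-33829714 (+).
Itgam: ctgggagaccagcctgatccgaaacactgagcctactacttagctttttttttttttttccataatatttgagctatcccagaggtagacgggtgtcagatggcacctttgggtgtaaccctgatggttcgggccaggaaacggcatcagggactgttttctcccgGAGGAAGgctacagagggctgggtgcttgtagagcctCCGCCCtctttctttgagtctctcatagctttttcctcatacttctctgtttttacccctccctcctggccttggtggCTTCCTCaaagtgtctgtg
Itgax: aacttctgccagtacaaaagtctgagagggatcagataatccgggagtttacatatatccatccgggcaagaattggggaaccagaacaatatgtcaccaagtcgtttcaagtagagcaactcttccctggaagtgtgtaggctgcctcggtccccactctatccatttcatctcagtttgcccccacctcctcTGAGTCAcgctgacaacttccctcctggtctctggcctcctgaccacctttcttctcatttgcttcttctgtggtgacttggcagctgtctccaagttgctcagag
Itga5: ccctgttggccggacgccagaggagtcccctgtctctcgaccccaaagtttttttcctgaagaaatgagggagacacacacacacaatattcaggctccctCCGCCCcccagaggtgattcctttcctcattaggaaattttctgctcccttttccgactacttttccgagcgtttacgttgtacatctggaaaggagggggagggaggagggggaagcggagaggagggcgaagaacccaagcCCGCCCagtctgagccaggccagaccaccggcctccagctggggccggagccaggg
Itgb1: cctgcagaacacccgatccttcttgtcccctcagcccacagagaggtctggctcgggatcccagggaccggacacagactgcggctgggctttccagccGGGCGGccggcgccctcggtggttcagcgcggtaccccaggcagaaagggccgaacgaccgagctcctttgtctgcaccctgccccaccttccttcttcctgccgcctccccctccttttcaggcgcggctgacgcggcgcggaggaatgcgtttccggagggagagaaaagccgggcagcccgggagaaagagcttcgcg
Itgb5: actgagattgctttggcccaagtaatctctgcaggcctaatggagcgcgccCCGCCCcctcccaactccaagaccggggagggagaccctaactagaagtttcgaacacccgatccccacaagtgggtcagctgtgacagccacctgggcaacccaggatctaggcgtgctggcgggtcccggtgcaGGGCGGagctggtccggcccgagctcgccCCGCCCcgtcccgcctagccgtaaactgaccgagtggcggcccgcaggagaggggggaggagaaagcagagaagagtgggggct

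The Itgam window held the PU.1 letters at position -84 on the strand of the gene and at position 32 on the other strand, with a Sp1 box at -47. The adjacent Itgax window held neither of these and had the AP-1 letters at -56. Itgb5 held 3 Sp1 boxes, at -199, -63 and -34, Itga5 held 2, at -149 and -6, and Itgb1 held 1, at -151 (positions are those of the leftmost base, counted from 1 at the gene start). Such letters are common: of 32851 windows of this length, 13.6% held GAGGAAG, 35.7% GGGCGG, 7.81% TGANTCA and 13.6% TATAAA. The 22 members had 25 windows, of which 8 held GAGGAAG, 12 GGGCGG and 3 TGANTCA. Counted by member, 8 held GAGGAAG, 11 GGGCGG and 3 TGANTCA. These are matches of letters, and binding was not measured.

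Values are log2 signal as deposited, and the level of a row is not comparable with that of another row. Rbm5 itself lay between 9.71 and 9.80 in KO CCI and between 9.66 and 9.84 in KO sham, against 10.59 to 10.79 in WT CCI and 10.70 to 10.82 in WT sham, so that no knockout array reached a wild type array (limma adjusted p = 7.98e-15 after CCI and 5.6e-16 after sham, KO against WT). The median over all rows of an array was 5.79 to 5.90. Of the 35 members, 13 had a mean below the lowest array median, and for these a signal above background is not shown. They are Itgal, Itgax, Itgad, Itgae, Itga2, Itga2b, Itga10, Itga11, Itgb3, Itgb6, Lama5, Lamb3 and Lamc3. As a check of the tissue, 8 neuronal markers averaged 13.68 to 13.92 in KO CCI, 13.93 to 14.09 in KO sham, 13.75 to 14.11 in WT CCI and 13.92 to 14.07 in WT sham. On 7 arrays (KO CCI replicates 22 and 40, WT CCI replicates 13, 14, 16 and 35 and WT sham replicate 25) markers of striatum or choroid plexus were high. Calls of members that change without these arrays are given with both values. Calls of partner and marker genes were not examined without them. No cut is given for the choice of these 7, and other arrays held striatum signal too. The mean of 6 striatum markers reached 0.85 above the WT sham mean in KO sham, where no array was left out. In KO CCI it had a median of 0.73 and a highest value of 2.54 above that mean. Fits without the 7 arrays are thus not free of striatum signal. WT sham replicate 1 stood apart in platelet markers, with Ppbp at 10.75 against a WT sham median of 5.34, and WT sham replicate 2 in neutrophil markers, with S100a8 at 7.02 against a median of 4.84. Without either one, 10 members were higher and 2 lower after injury in WT, against 11 and 2 with all arrays, the call of Itgal being lost.

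After injury, 10 of 25 integrin chains rose in KO and 8 in WT, and 0 fell in either, while laminin chains moved in both directions. A gene was called where the limma adjusted p, taken over all 65956 rows, was under 0.05. Itga9 and Itgax were the integrin chains called in KO alone. Both calls ended after quantile normalization (limma adjusted p = 0.0953 and 0.17). In KO, 12 of 35 members were higher after CCI (34.3%), where 8.43% of all rows were called higher. Another 3 members were lower (8.57%), beside 8.27% of all rows. In WT, 11 members were higher (31.4%), beside 8.86% of all rows, and 2 were lower (5.71%), beside 7.96%. Named and bright rows were called more often than rows in general. Among rows with 1 symbol and a mean at or above the lowest array median, 18% were called higher in KO and 21.3% in WT, and of the 22 members that passed the same filter 10 were called higher in each genotype (45.5%). For lower calls the same filter gave 15.4% of rows in KO and 13.7% in WT, and 3 members in KO (13.6%) and 2 in WT (9.09%). In KO, 8 members had every injured array above every sham array, which 3.51% of all rows did, and 0 had every one below, which 2.87% did. In WT the counts were 8, beside 4.44% of all rows, and 0, beside 2.82%. In both genotypes 10 members were higher and 2 were lower, 3 were called in KO alone, 1 in WT alone, and no member had opposite calls. Because the tissue is bulk cortex, more cells of a type and more RNA per cell cannot be told apart, here or below.

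**Figure D1:**
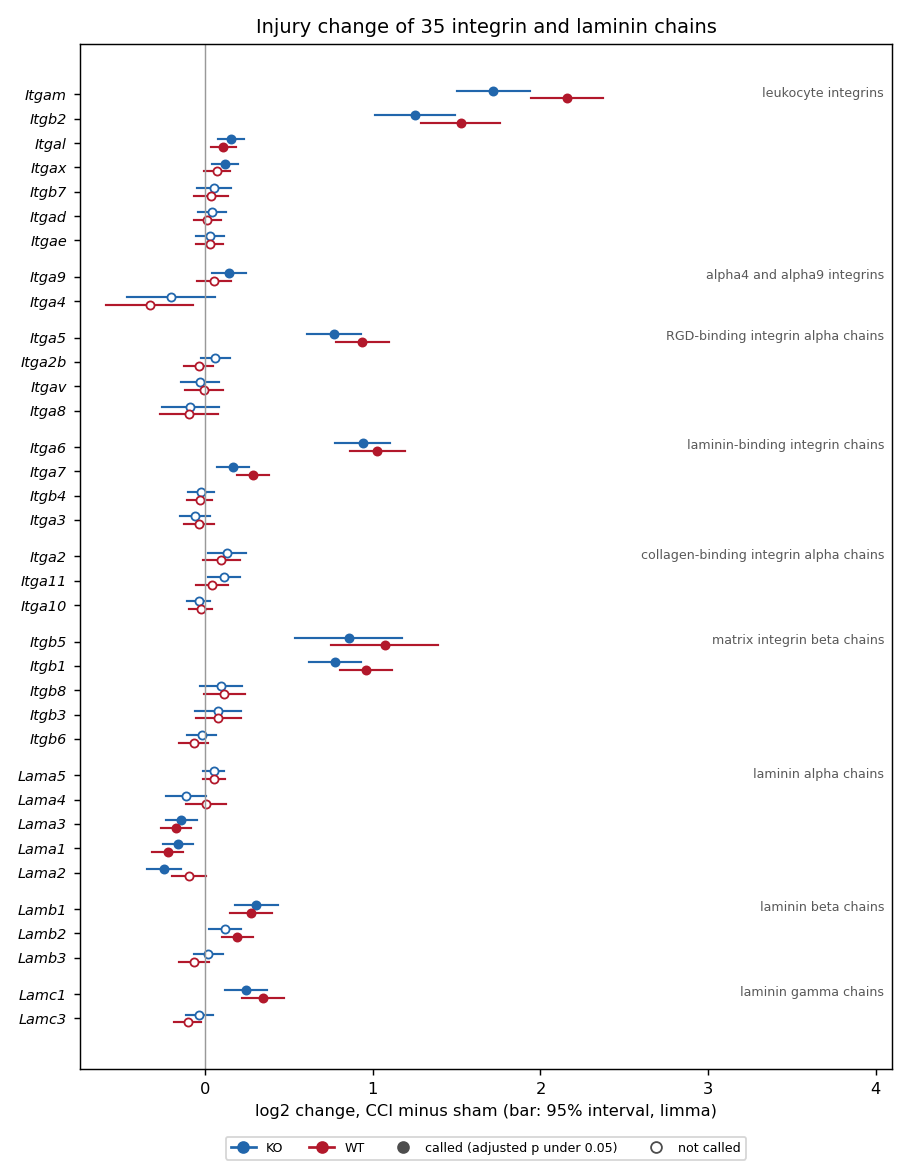
The log2 change after injury (CCI minus sham, horizontal axis) is drawn for each of the 35 chains with its 95% interval from limma, KO above WT in each pair, grouped by class. Filled points passed an adjusted p of 0.05. Itgam and Itgb2 lie farthest to the right, a second group (Itgb5, Itga6, Itgb1, Itga5) lies between 0.77 and 1.07, and the other chains lie between -0.33 and 0.34.

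Among the 7 leukocyte chains the larger changes were those of Mac-1. Itgam and Itgb2, its alpha and beta chains, changed more than any other member in either genotype, while the log2 changes of the other 5 chains were at most 0.15. Itgam ran at 9.31, 9.59 and 9.93 (lowest, median and highest of 7 arrays) in KO CCI and at 7.65, 7.93 and 8.05 in KO sham. Its values were 9.51, 9.61 and 10.18 in WT CCI and 7.49, 7.58 and 7.72 in WT sham. All injured arrays thus lay more than a log2 unit above all sham arrays. The log2 change was 1.72 in KO (SE 0.105, 3.29-fold, limma adjusted p = 5.98e-12) and 2.16 in WT (SE 0.104, 4.46-fold, adjusted p = 2.1e-14).

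Itgb2 is the beta chain that Itgal, Itgam, Itgax and Itgad share. It had log2 signals of 7.33, 7.71 and 7.85 in KO CCI and of 6.17, 6.45 and 6.51 in KO sham. In WT CCI it stood at 7.24, 7.86 and 8.36, against 6.21, 6.33 and 6.57 in WT sham. Injured and sham arrays did not overlap in either genotype. It rose 2.38-fold in KO (log2 1.25, SE 0.116, limma adjusted p = 8.48e-09) and 2.87-fold in WT (log2 1.52, SE 0.115, adjusted p = 1.18e-10).

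The remaining alpha partners of Itgb2 were close to background. Itgal, the alpha chain of LFA-1, lay between 5.04 and 5.21 in KO CCI and between 4.88 and 5.06 in KO sham, and between 5.10 and 5.23 in WT CCI and 5.01 and 5.10 in WT sham. The groups touched or overlapped in each genotype. Itgal passed the test with a log2 change of 0.15 in KO (limma adjusted p = 0.00377) and 0.11 in WT (adjusted p = 0.0412), and the WT call was ended by leaving out any 1 of 11 arrays (adjusted p up to 0.0945) or the 7 arrays named above (0.142). Those 11 were replicates 13, 15, 34, 35 and 36 of WT CCI and 1, 2, 4, 25, 26 and 27 of WT sham. Itgax, which marks dendritic cells and activated microglia, lay between 5.10 and 5.21 in KO CCI, just above the 4.95 to 5.09 of KO sham, and between 5.03 and 5.21 in WT CCI and 4.98 and 5.13 in WT sham. Its log2 change of 0.12 passed in KO (limma adjusted p = 0.0269, and 0.17 after quantile normalization), and its change in WT was 0.07 (adjusted p = 0.222). Without KO CCI replicate 23 or 24 or KO sham replicate 12, 32 or 33 the KO call of Itgax ended (limma adjusted p up to 0.0655). Itgad, whose chain also pairs with beta2, had log2 changes of 0.04 in KO and 0.01 in WT, and was not called.

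The beta7 integrins of lymphocytes were not called either. Itgb7 had log2 changes of 0.05 in KO and 0.03 in WT, and Itgae, its partner on T cells of epithelia, had 0.03 in both. Itga4, the partner of beta1 and beta7 that binds Vcam1, had values of 6.50, 6.95 and 7.61 in KO CCI and 6.97, 7.16 and 7.37 in KO sham, and of 6.85, 7.05 and 7.41 in WT CCI and 7.22, 7.29 and 7.79 in WT sham. Its log2 change was -0.21 in KO (limma adjusted p = 0.322) and -0.33 in WT (adjusted p = 0.0754). Itga9, the related receptor for tenascin-C, ran from 6.10 to 6.40 in KO CCI and from 6.01 to 6.22 in KO sham, which overlap. It was called in KO with a change of 0.14 (limma adjusted p = 0.0431). Leaving out the 7 arrays with striatum or choroid plexus signal ended that call (change 0.07, limma adjusted p = 0.345), as did leaving out any 1 of 10 single arrays (adjusted p up to 0.132). They were replicates 22, 40, 41 and 42 of KO CCI and 10, 11, 12, 31, 32 and 33 of KO sham. In WT the change of Itga9 was 0.05, with 6.08 to 6.30 in WT CCI and 6.06 to 6.17 in WT sham.

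**Figure D2:**
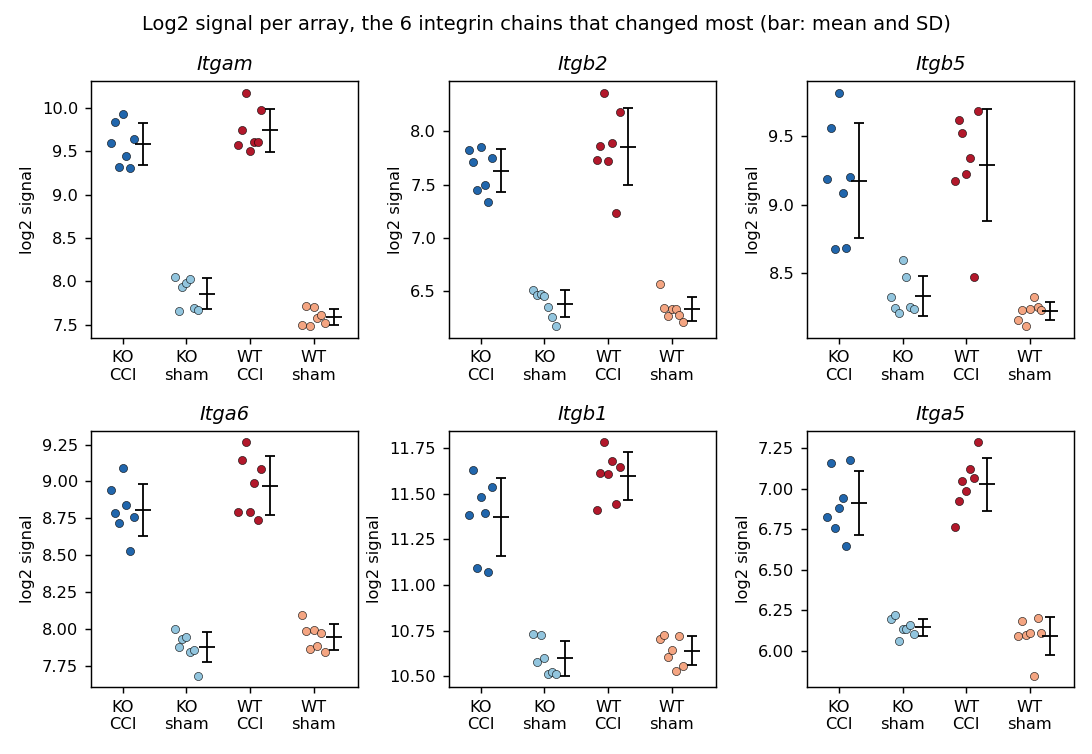
Each point is the log2 signal of an array (vertical axis, own range per gene) for the 6 integrin chains that changed most, in KO CCI, KO sham, WT CCI and WT sham, with mean and SD as bars (n = 7). In each panel every injured array lies above the sham arrays of its own genotype, and the gap is narrowest for Itgb5, whose lowest KO CCI array is at 8.68 with the highest KO sham array at 8.59, and whose lowest WT CCI array is at 8.47 with the highest WT sham array at 8.32.

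After injury most markers of monocytes and macrophages rose, while the lists of microglia and neutrophils rose in part. Of 8 markers of monocytes and macrophages 7 rose in KO and 8 in WT (median log2 change 0.67 in KO and 0.89 in WT), with Cd68, a lysosomal protein of phagocytes, 9.99-fold higher in KO and 13.4-fold higher in WT. Their mean log2 signal was 6.68 to 7.51 in KO CCI and 5.59 to 5.87 in KO sham, and 6.96 to 7.71 in WT CCI and 5.67 to 5.89 in WT sham. Of 7 measured microglial markers 3 rose and 1 fell in KO, and 4 rose in WT. Their mean was 7.52 to 8.10 in KO CCI and 7.35 to 7.53 in KO sham, and 7.47 to 8.16 in WT CCI and 7.29 to 7.43 in WT sham. Of 8 neutrophil markers 5 rose in each genotype, with a mean of 5.30 to 5.93 in KO CCI and 4.82 to 4.97 in KO sham, and of 5.44 to 6.31 in WT CCI and 4.91 to 5.61 in WT sham. The 7 markers of T and NK cells had means of 4.80 to 5.02 in KO CCI, 4.82 to 5.03 in KO sham, 4.85 to 5.02 in WT CCI and 4.90 to 4.996 in WT sham, below the array medians throughout. None of them rose, and Cd8a was lower in WT. The part of these cell types in the rise of Itgam and Itgb2 was not tested.

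Of the 16 matrix integrin chains, 5 rose in each genotype, and they were the same 5: Itgb1, Itga5, Itga6, Itga7 and Itgb5. The remaining 11 were not called. The 5 are 31.2% of the class, beside 8.43% of all rows called higher in KO and 8.86% in WT. Among named, bright rows 18% were called higher in KO and 21.3% in WT. Neither integrin class was filtered for brightness. Itga4 (log2 change -0.21 in KO and -0.33 in WT) and Itga9 (0.14 and 0.05) were placed in neither class. The median log2 change of the 16 matrix chains was 0.09 in KO and 0.06 in WT, beside a median over all rows of 0.01 in KO and -0.02 in WT. For the 7 leukocyte chains the median change was 0.12 in KO and 0.07 in WT, and 4 were called higher in KO (57.1%) and 3 in WT (42.9%).

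Itgb1, the shared beta chain of fibronectin, laminin and collagen receptors, had log2 signals of 11.07, 11.40 and 11.63 in KO CCI and 10.51, 10.58 and 10.73 in KO sham. Its values were 11.41, 11.61 and 11.78 in WT CCI and 10.53, 10.64 and 10.72 in WT sham. The groups did not overlap. Itgb1 rose 1.71-fold in KO (log2 0.78, SE 0.0756, limma adjusted p = 2.04e-08) and 1.94-fold in WT (log2 0.96, SE 0.0752, adjusted p = 2.29e-10).

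Itga5, which with beta1 forms the fibronectin receptor, stood at 6.65, 6.88 and 7.18 in KO CCI and 6.06, 6.13 and 6.22 in KO sham. In WT CCI its values were 6.76, 7.05 and 7.29, against 5.84, 6.11 and 6.20 in WT sham, again without overlap. The rise was 1.70-fold in KO (log2 0.77, SE 0.0775, limma adjusted p = 3.85e-08) and 1.92-fold in WT (log2 0.94, SE 0.0771, adjusted p = 5.52e-10).

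Itga6 and Itga7 are alpha chains of laminin receptors. Itga6 ran at 8.53, 8.79 and 9.09 in KO CCI and 7.68, 7.88 and 7.997 in KO sham, and at 8.74, 8.99 and 9.27 in WT CCI and 7.84, 7.97 and 8.10 in WT sham. No injured array reached down to the sham arrays. Its change was 0.94 in KO (SE 0.0799, 1.92-fold, limma adjusted p = 1.94e-09) and 1.03 in WT (SE 0.0795, 2.04-fold, adjusted p = 1.8e-10). Itga7, known for its role in muscle, lay between 6.04 and 6.25 in KO CCI and 5.90 and 6.01 in KO sham, and between 6.07 and 6.32 in WT CCI and 5.79 and 6.00 in WT sham. Here too the groups were apart, by a small step: 0.17 in KO (SE 0.0466, limma adjusted p = 0.0119, and 0.0581 after quantile normalization) and 0.29 in WT (SE 0.0464, adjusted p = 3.64e-05). The other laminin-binding chains were not called. Itga3 had log2 changes of -0.06 in KO and -0.04 in WT, and Itgb4, the hemidesmosome chain that pairs with Itga6, had -0.03 in both.

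Within the alphav family the beta chains differed. Itgb5, the vitronectin receptor chain, had log2 signals of 8.68, 9.19 and 9.82 in KO CCI and 8.21, 8.25 and 8.59 in KO sham, and of 8.47, 9.34 and 9.68 in WT CCI and 8.11, 8.23 and 8.32 in WT sham. Injured arrays spread over more than a log2 unit and did not overlap the sham arrays. The rise was 1.81-fold in KO (log2 0.85, SE 0.155, limma adjusted p = 2.06e-04) and 2.1-fold in WT (log2 1.07, SE 0.154, adjusted p = 7.06e-06). Itgav itself lay between 10.49 and 10.87 in KO CCI, 10.72 and 10.88 in KO sham, 10.75 and 11.01 in WT CCI and 10.74 and 11.03 in WT sham. Its log2 change was -0.03 in KO (95% interval -0.15 to 0.08) and -0.01 in WT (95% interval -0.12 to 0.10). Itgb8, the chain that with alphav activates latent TGF-beta, had log2 changes of 0.10 in KO (limma adjusted p = 0.342) and 0.11 in WT (0.232). Itgb3 and Itgb6 had means below the lowest array median and were not called.

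The other matrix chains stayed uncalled. Itga8, which binds nephronectin, had log2 changes of -0.09 in KO and -0.10 in WT. The collagen-binding chains Itga2, Itga10 and Itga11 and the platelet chain Itga2b had means below the lowest array median. Their changes lay between -0.04 and 0.13 in KO and between -0.04 and 0.10 in WT. The unadjusted p of Itga2 and Itga11 was under 0.05 in KO (limma adjusted p = 0.107 and 0.109).

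**Figure D3:**
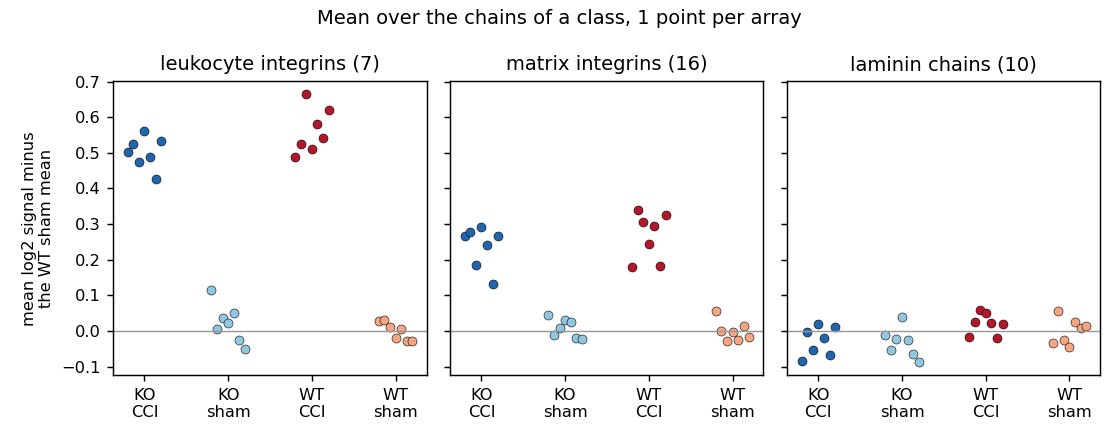
The mean log2 signal over the 7 leukocyte integrins, the 16 matrix integrins and the 10 laminin chains is drawn for each array, relative to the mean of the WT sham arrays (vertical axis). Leukocyte integrins lie 0.43 to 0.56 higher in KO CCI and 0.49 to 0.66 higher in WT CCI, matrix integrins lie 0.13 to 0.29 higher in KO CCI and 0.18 to 0.34 higher in WT CCI, and laminin chains of injured and sham arrays overlap.

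As a mean over the class, the leukocyte integrins lay 0.43 to 0.56 above the WT sham mean in KO CCI and -0.05 to 0.12 from it in KO sham, and 0.49 to 0.66 above it in WT CCI and -0.03 to 0.03 from it in WT sham. The matrix integrins lay 0.13 to 0.29 above it in KO CCI, -0.02 to 0.05 from it in KO sham and 0.18 to 0.34 above it in WT CCI and -0.03 to 0.06 from it in WT sham. In both classes the injured arrays were apart from the sham arrays. Itga4 and Itga9 are in neither mean. For the leukocyte class this mean rests on Itgam and Itgb2, since the changes of the other 5 chains were 0.15 or less. For the matrix class it rests mostly on Itgb1, Itga5, Itga6 and Itgb5, with changes of 0.77 to 1.07, while the class median was 0.09 in KO and 0.06 in WT.

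The largest laminin change was 0.30 in KO and 0.34 in WT, and the chains did not move as a block: called alpha chains were lower after injury, and called beta and gamma chains were higher. Of 10 chains 2 rose and 3 fell in KO, and 3 rose and 2 fell in WT. These are shares of 20% higher and 30% lower in KO, and 30% higher and 20% lower in WT. Of all rows, 8.43% were higher and 8.27% lower in KO, and 8.86% and 7.96% in WT. The shares of named, bright rows given above were 18% and 15.4% in KO and 21.3% and 13.7% in WT. Those are not a like set, since Lama5, Lamb3 and Lamc3 did not pass that filter. These uncalled chains lower the laminin shares. The median log2 change of the 10 laminin chains was -0.01 in KO and -0.03 in WT. The chain means of the class overlapped between groups, from -0.09 to 0.02 in KO CCI and -0.09 to 0.04 in KO sham, and from -0.02 to 0.06 in WT CCI and -0.05 to 0.06 in WT sham.

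Lamc1, the gamma chain of most laminins, had values of 8.11, 8.31 and 8.43 in KO CCI and 7.90, 8.01 and 8.21 in KO sham, and of 8.20, 8.41 and 8.50 in WT CCI and 7.89, 8.04 and 8.18 in WT sham. The arrays overlapped in KO and were just apart in WT. The change was 0.24 in KO (SE 0.0619, limma adjusted p = 0.00594) and 0.34 in WT (SE 0.0615, adjusted p = 1.41e-04). Without the 7 arrays with striatum or choroid plexus signal it was 0.18 in KO (adjusted p = 0.0649) and 0.45 in WT (2.26e-04).

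Lamb1, a beta chain of vessel and early basement membranes, lay at 6.23, 6.43 and 6.60 in KO CCI and 6.08, 6.17 and 6.30 in KO sham, and at 6.45, 6.53 and 6.63 in WT CCI and 6.11, 6.25 and 6.49 in WT sham. The ranges overlapped in both genotypes. It rose by 0.30 in KO (SE 0.0617, limma adjusted p = 6.67e-04) and 0.27 in WT (SE 0.0614, adjusted p = 0.00174). Lamb2, the beta chain of mature vessel laminin, lay at 7.40, 7.48 and 7.67 in KO CCI and 7.30, 7.38 and 7.50 in KO sham, and at 7.54, 7.61 and 7.64 in WT CCI and 7.33, 7.42 and 7.54 in WT sham. The arrays overlapped in KO and touched in WT. Its change was 0.12 in KO (SE 0.0460, limma adjusted p = 0.0766) and 0.19 in WT (SE 0.0457, adjusted p = 0.00328). The KO value passed without KO CCI replicate 40 (limma adjusted p = 0.0397).

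Lama1, an alpha chain of meningeal and early basement membranes, had values of 5.68, 5.82 and 5.86 in KO CCI and 5.83, 6.00 and 6.05 in KO sham, and of 5.74, 5.79 and 5.92 in WT CCI and 5.92, 6.04 and 6.11 in WT sham. The lowest sham and the highest injured arrays overlapped in KO and met in WT. It fell by 0.16 in KO (limma adjusted p = 0.00914) and by 0.22 in WT (adjusted p = 4.19e-04). Lama3, the alpha chain of epithelial laminin, lay between 6.11 and 6.26 in KO CCI and 6.23 and 6.45 in KO sham, and between 6.07 and 6.28 in WT CCI and 6.26 and 6.45 in WT sham. The ranges overlapped by a small stretch in each. It fell by 0.14 in KO (limma adjusted p = 0.0249, 0.109 without the 7 arrays) and by 0.17 in WT (adjusted p = 0.0054). Without KO CCI replicate 21, 22 or 23 or KO sham replicate 9 or 12 the KO call of Lama3 ended (limma adjusted p up to 0.0635).

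Lama2, the alpha chain that astrocytes and mural cells lay down around vessels, ran at 6.80, 6.96 and 7.16 in KO CCI and 7.11, 7.16 and 7.37 in KO sham. In WT CCI it ran at 6.96, 7.05 and 7.11, against 7.09, 7.14 and 7.20 in WT sham. A single high injured array overlapped the sham range in KO, and the ranges overlapped at their edges in WT. Lama2 fell by 0.25 in KO (SE 0.0485, limma adjusted p = 5.29e-04), and its change in WT was -0.10 (SE 0.0483, adjusted p = 0.196). The difference between the genotypes in this change was -0.15 (SE 0.0685, limma adjusted p = 0.784), so a difference between KO and WT is not shown. Lama4, the endothelial alpha chain, had log2 changes of -0.12 in KO and 0.00 in WT. Lama5, Lamb3 and Lamc3 had means below the lowest array median and were not called.

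By the number in its title an array falls in a first run, 1 to 24, or a second, 25 to 42, and both runs hold arrays of every group. Fitted within each run, the 6 laminin chains kept their direction in both genotypes, and most of their calls did not pass. The log2 change of Lama1 was -0.23 in KO in the first run (limma adjusted p = 0.0203) and -0.06 in the second (0.755), and in WT -0.20 (0.0528) and -0.26 (0.0629). For Lamc1 it was 0.21 in KO in the first run (limma adjusted p = 0.13) and 0.30 in the second (0.139), and in WT 0.42 (0.0047) and 0.24 (0.187). Of the integrin chains that changed most, Itgb5 did not pass in the second run, with 0.72 in KO (limma adjusted p = 0.152) and 0.90 in WT (0.0509), while Itgam, Itgb2, Itgb1, Itga5 and Itga6 passed in each run.

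**Figure D4:**
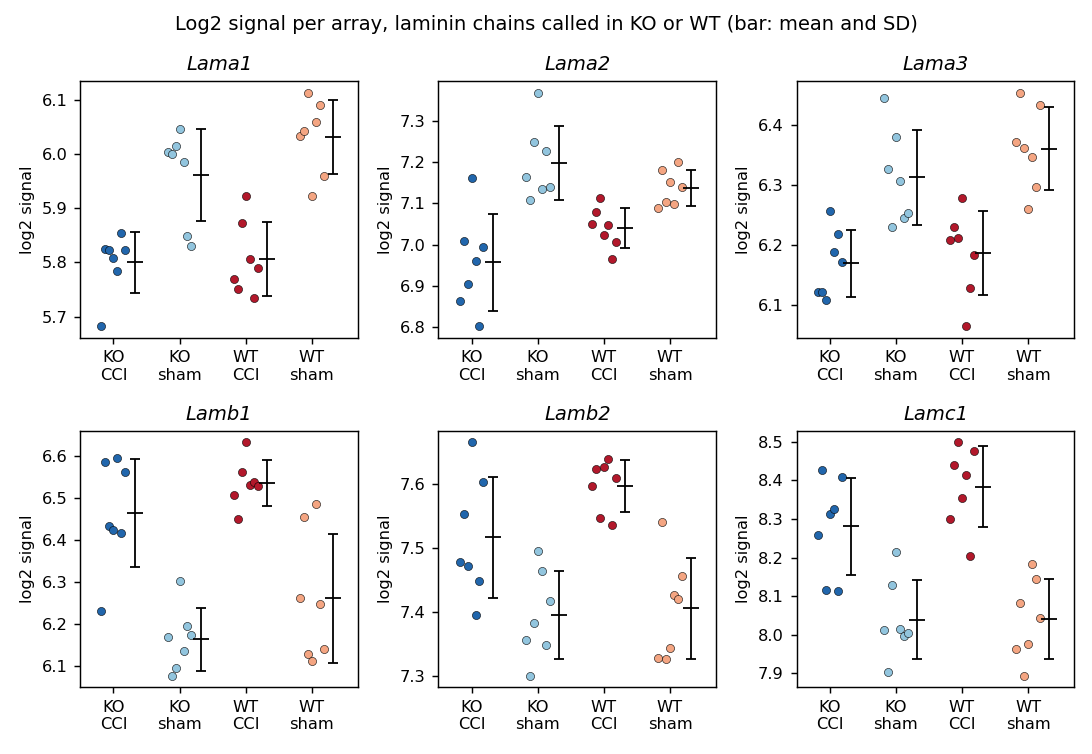
Each point is the log2 signal of an array (vertical axis, own range per gene) for the 6 laminin chains called in KO or WT, with mean and SD as bars (n = 7), in KO CCI, KO sham, WT CCI and WT sham. Lama1 and Lama3 sit lower and Lamb1 and Lamc1 higher in injured tissue, by less than 0.35 on the log2 scale.

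Markers of vessel, meningeal and glial cells were measured on the same arrays. Of 8 endothelial markers 3 rose in KO and 4 in WT, with a mean log2 signal of 8.50 to 8.90 in KO CCI and 8.19 to 8.57 in KO sham, and of 8.81 to 9.17 in WT CCI and 8.34 to 8.66 in WT sham. Of 8 mural markers 1 rose and 1 fell in KO, and 2 rose in WT, and the means were 7.17 to 7.46 in KO CCI, 7.16 to 7.66 in KO sham, 7.39 to 7.70 in WT CCI and 7.36 to 7.61 in WT sham. Of 8 leptomeningeal fibroblast markers 2 rose and 1 fell in each genotype, with means of 6.44 to 7.27 in KO CCI, 6.42 to 6.75 in KO sham, 6.57 to 6.97 in WT CCI and 6.53 to 6.86 in WT sham. Of 8 astrocyte markers 3 rose and 1 fell in KO, and 5 rose and 1 fell in WT, with means of 11.13 to 11.61 in KO CCI, 10.68 to 11.17 in KO sham, 11.06 to 11.67 in WT CCI and 10.62 to 10.71 in WT sham. Of the other lists, 1 of 4 platelet markers (Pf4) rose and 3 of 8 neuronal markers fell in each genotype, 1 of 7 oligodendrocyte markers rose in KO and 5 in WT, and 0 striatum or choroid plexus markers were called by limma. The part of these cells in the integrin and laminin changes was not tested.

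The partners of these chains were followed as lists. Among 20 measured adaptors and kinases that couple integrins to actin, 12 rose and 1 fell in KO and 13 rose in WT. Of all rows, 8.43% in KO and 8.86% in WT were called higher, and 8.27% in KO were called lower. Among named, bright rows 18% in KO and 21.3% in WT were called higher. The median log2 change of the adaptors and kinases was 0.22 in KO and 0.32 in WT. Apbb1ip, which recruits talin for leukocyte integrins, was 2.39-fold higher in KO and 2.70-fold higher in WT, and filamin A (Flna) was 2.08-fold higher in KO and 2.40-fold higher in WT. Talin 1 (Tln1), which activates integrins from inside the cell, rose 1.56-fold in KO and 1.73-fold in WT, whereas Tln2 fell by 0.15 on the log2 scale in KO (limma adjusted p = 0.0434).

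Among 15 measured ligands 6 rose and 1 fell in each genotype. Of all rows, 8.43% were called higher and 8.27% lower in KO, and 8.86% and 7.96% in WT. Among named, bright rows the shares were 18% and 15.4% in KO and 21.3% and 13.7% in WT. Tenascin-C (Tnc) was 3.17-fold higher in KO and 4.46-fold higher in WT, thrombospondin 1 (Thbs1) was 3.74-fold higher in KO and 3.60-fold higher in WT, and fibronectin (Fn1), the ligand of Itga5 with Itgb1, was 2.05-fold higher in KO and 3.15-fold higher in WT. Nephronectin (Npnt), the ligand of Itga8, fell by 0.37 in KO (limma adjusted p = 4.25e-04) and by 0.40 in WT (adjusted p = 1.38e-04). Among 10 partners of laminins in basement membrane 6 rose and 1 fell in KO, and 5 rose in WT, beside the same shares of rows. The linker nidogen 1 (Nid1) rose 1.23-fold in KO and 1.36-fold in WT, and the collagen IV chains rose likewise, Col4a1 1.24-fold in KO and 1.22-fold in WT and Col4a2 1.23-fold in both. Agrin (Agrn) fell by 0.26 in KO (limma adjusted p = 0.00818).

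None of the 35 chains was called between the genotypes. After sham, 0 members were called between KO and WT, where 1.28% of all rows were called (847 rows), and 3 had an unadjusted p under 0.05 (limma). The largest difference was that of Itgam, 7.86 ± 0.18 in KO sham and 7.59 ± 0.10 in WT sham (SD, n = 7), a log2 difference of 0.28 (95% interval 0.06 to 0.49, limma adjusted p = 0.263). The ranges overlapped. Single arrays moved the number of rows called after sham by more than 1.5 times. It was 438 without KO sham replicate 11, 447 without KO sham replicate 12, and 524, 488, 520 and 557 without WT sham replicates 1, 2, 26 and 27, and 0 members were called in each. After CCI, 0 members were called, where 0.653% of all rows were called, and 4 had an unadjusted p under 0.05 (limma). Itgb1 had the smallest p there, at 11.37 ± 0.21 in KO CCI and 11.60 ± 0.13 in WT CCI (SD), a difference of -0.23 (95% interval -0.38 to -0.07, limma adjusted p = 0.221). No member had KO and WT ranges that were apart after either procedure, which 1.07% of all rows had after sham and 0.415% after CCI. Without the 7 arrays with striatum or choroid plexus signal, 59 rows were called higher and 128 lower in KO after CCI. With every array 431 rows were called in either direction.

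The injury change itself was compared between genotypes as KO minus WT. It was called for 0 members and for 0% of all rows by limma, and 2 members had an unadjusted p under 0.05. Itgam came closest, with a difference of -0.44 (SE 0.148, 95% interval -0.74 to -0.13, limma adjusted p = 0.779), composed of the 1.72 in KO and the 2.16 in WT. Of the partner genes, 2 were called between the genotypes after CCI, both lower in KO: Flna with a log2 difference of -0.37 (limma adjusted p = 0.0223) and Nid1 with -0.24 (adjusted p = 0.0376). The endothelial markers Pecam1 and Cdh5 were also lower in KO CCI than in WT CCI, with log2 differences of -0.34 (limma adjusted p = 0.0228) and -0.49 (adjusted p = 0.0197). Of the oligodendrocyte markers Mbp was lower in KO CCI, with -0.42 (limma adjusted p = 0.049). Leaving out single arrays ended the call of Flna for 6 of 28 arrays, of Nid1 for 9, of Pecam1 for 3, of Cdh5 for 1 and of Mbp for 25 (limma adjusted p up to 0.121). For Cdh5 the array was WT CCI replicate 15, and for Pecam1 it was any of KO CCI 21, KO CCI 41 and WT CCI 15. For Flna they were numbers 23, 40 and 41 of KO CCI with numbers 15, 34 and 36 of WT CCI, and for Nid1 those 6 with numbers 21 and 24 of KO CCI and number 16 of WT CCI. The Mbp call was kept without WT sham replicate 25, KO sham replicate 12 or KO CCI replicate 42.

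Between the sham groups the astrocyte marker Gfap was higher in KO, at 12.40 ± 0.98 in KO sham and 11.02 ± 0.27 in WT sham (SD, n = 7), a log2 difference of 1.36 (limma adjusted p = 0.0263). Its ranges overlapped, and the call ended without KO sham replicate 9, 11, 12 or 31 or WT sham replicate 2 or 25 (adjusted p up to 0.075). The part of these markers in the levels of the chains was not tested.

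The injury response was also compared between the sexes. The difference in injury change between males and females was called for 0 members by limma, where 0.0106% of all rows were called (7 rows), and 1 member, Itgav, had an unadjusted p under 0.05 (difference 0.17, adjusted p = 0.795). The number of rows called was 177 without KO CCI replicate 22, 80 without WT CCI replicate 14, 15 without WT CCI replicate 13, 11 without KO CCI replicate 23, and 4 without KO sham replicate 33 or WT sham replicate 25, with 0 members called in each.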

How the data were processed

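Total RNA from the cortex of 28 mice was hybridised to MTA 1.0 arrays. The deposited table holds log2 signal per transcript cluster (2.21 to 19.93 over all rows). The authors' normalization of these values is not given in the labels, and no further normalization was applied. Of 72688 rows 6732 were controls and were left out. Gene symbols came from the platform annotation, and a row was named where it listed 1 symbol (30604 rows). Correlations between arrays were 0.986 to 0.995.

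Differences were tested on all 65956 rows in R 4.3.3 by limma 3.58.1, using lmFit and eBayes on 4 group means with an additive sex term, with Benjamini-Hochberg adjustment over all of them, and called at an adjusted p under 0.05. The fit was tested on simulated data in which 200 rows were changed. A log2 change of 0.25 was recovered for 18.5% of them in KO against WT after sham and for 12% after CCI. For the difference in injury change between genotypes, 1% were recovered at 0.25 and 50% at 0.5. Differences of these sizes that were not called are thus not shown to be absent. The male and female contrast used 8 means. The labels do not say more than that each array is a separate animal. Values are given for members called in at least 1 contrast, and for Itga4 and Itgav, which were called in none and were added after their values were seen, with partner genes limited to 3 per direction and list. The members, gene lists, marker lists and printed promoters were chosen with earlier results of these data known, so counts over them are descriptions. Tables and plots were made in Python 3.11.15 (pandas 2.3.3; matplotlib version 3.10.9).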

Additional observations from a re-analysis of the deposited data

Results flagged for a closer look

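In 12 of 140 sets of 7 arrays (35 members in 4 groups) an array stood apart from the other 6, its gap to the nearest being a larger share of the whole range than Dixon's critical value at the 5% level allows. Chance gives about 5% of sets. Among chains that rose after injury, Itga5 was lowest in WT sham replicate 25 at 5.844 (next 6.091), Itgb2 was highest in WT sham replicate 1 at 6.57 (next 6.342), and Itgb5 was lowest in WT CCI replicate 35 at 8.472 (next 9.177). In that array Itgb7 was highest at 6.234 (next 6.007). KO CCI replicate 23 had the lowest Itgav at 10.489 (next 10.739) and the highest Itga2 at 4.866 (next 4.613). KO sham replicate 9 had the highest Itga9 at 6.219 (next 6.077) and the highest Itgae at 4.742 (next 4.612). The others were Itga10 in KO CCI replicate 41 at 5.488 (next 5.553), Lama1 in KO CCI replicate 21 at 5.683 (next 5.785), Itgb6 in KO sham replicate 31 at 4.281 (next 4.215) and Itga2b in WT sham replicate 1 at 5.874 (next 5.722).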

How the results depend on the processing

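The labels do not call the title-number runs batches. Within titles 1 to 24, 6 members were called higher in KO (12 with all arrays), and 0 lower in WT (2 with all arrays). Within titles 25 to 42, 6 were higher and 0 lower in KO (12 and 3 with all arrays), and 5 were higher and 0 lower in WT (11 and 2). These fits hold fewer arrays. With the run as a covariate, without the sex term, with a variance trend or with array weights, all 15 calls in KO and all 13 in WT remained. Leaving out single arrays gave 10 to 12 higher and 2 to 3 lower in KO, and 10 to 11 higher and 2 to 3 lower in WT, and 0 in the genotype, interaction and sex comparisons. The calls of Itgam, Itgb2, Itgb1, Itga5 and Itga6 in both genotypes remained under all settings run. Without the 7 arrays with striatum or choroid plexus signal, 12 calls in KO and 12 in WT remained. Lamb2 passed in KO when fewer rows were tested. Quantile normalization and centring on array medians each ended the calls of Itga7, Itga9 and Itgax in KO. Fitted on only the arrays of the groups compared, the KO calls of Itga9 (limma adjusted p = 0.0817), Itgax (0.0675) and Lama3 (0.0632) and the WT call of Itgal (0.0958) ended. No call reversed. Averaging all rows of a symbol was not run, since each member had 1 row, and the sex comparison was not run under every setting. No paired analysis was possible because the replicate numbers differ between groups. Signal over background limits 13 members whose mean lay below the lowest array median.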
